A study of Homo sapiens with 36 samples.

Results

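The urokinase system was followed through 7 genes, PLAUR, PLAU, PLAT, SERPINE2, SERPINB2, SERPINB5 and SERPINA1, which were picked by symbol from a count table of 60591 genes. The table covers 18 mRNA libraries, and the series holds 36 libraries in all, the others being of small RNA. The cells were of 2 human colorectal cancer lines, Caco-2, which had spent 21 days under conditions for differentiation, and HT-29, for which no such step is labelled. Each line was exposed for 24 h to 300 µM cobalt chloride (CoCl2), to 5 µM of the oxyquinoline derivative 4896-3212 (Oxy), or to the vehicle alone, 0.5 µl of DMSO per ml of medium (control), with 3 biological replicates in each of the 6 groups. Oxy was dissolved in DMSO and brought the same 0.5 µl per ml. The cobalt stock was made in water, and the labels and the study's methods differ on whether that medium held DMSO too, so a solvent effect in the CoCl2 groups was not tested. Each line is 1 tumour-derived line, and differentiation was given to Caco-2 alone, so that line and culture state cannot be told apart.

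Urokinase, the product of PLAU, is a secreted serine protease that cuts plasminogen into plasmin, a broad protease that dissolves fibrin and degrades extracellular matrix. Its receptor uPAR, the product of PLAUR, is held in the membrane by a lipid anchor, concentrates urokinase at the cell surface, and signals through integrins and other partners. Serpins are inhibitors that trap their target protease in a covalent complex, and in the intestine this system is known for its part in epithelial migration, wound closure and invasion of colorectal tumours. CoCl2 and oxyquinolines are used as chemical mimics of hypoxia, since they block the prolyl hydroxylases by which a cell with enough oxygen destroys hypoxia-inducible factor.

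Total counts per library ran from 12925719 to 22332639, and 3 counts in a library, taken as the limit of detection, equalled 0.134 to 0.232 CPM (the count scaled to a common library total). Levels are CPM after TMM, a scaling that takes most genes as unchanged between libraries, and library size alone was tried as another scaling. All 8 epithelial markers (EPCAM, VIL1, CDX2 and keratins among them) were above 1 CPM in every group. Of 8 enterocyte markers, 7 or 8 were above 1 CPM in the Caco-2 groups and 4 in the HT-29 groups, where ALPI and APOA4 had at most 3 counts in a library. The leukocyte marker PTPRC had at most 3 counts in every library. Its list summed to 25.5 to 40.9 CPM in Caco-2 and to 1085 to 1229 CPM in HT-29, where LYZ (lysozyme) alone gave a mean of 1096 CPM in control. Lists of 7 fibroblast and 5 endothelial markers summed to at most 31.2 and 12.8 CPM. The fibroblast list was at 3.49 to 3.90 CPM in HT-29 control and 6.83 to 7.98 CPM with Oxy. Of its genes, COL1A1 went from a mean of 1.41 to 5.63 CPM and LUM from 2.02 to 1.78 CPM. COL1A2, COL3A1, DCN and THY1 were at no more than 3 counts, and the part of this list in the results was not tested. Of 8 genes commonly induced by hypoxia-inducible factor, Caco-2 had enough counts to test 7. CA9 was too scarce there, with 0 counts in control, 6 to 15 with CoCl2 and 0 to 7 with Oxy. A rise here is an FDR under 0.05 in the edgeR test and a log2 fold change over 1. For Caco-2, 7 of 7 rose with CoCl2, against 9.13% of all genes, and 5 of 7 with Oxy, against 4.43%. For HT-29, 8 of 8 rose with CoCl2, against 17.4% of all genes, and 3 of 8 with Oxy, against 9.5%.

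Of the 7 genes, Caco-2 had enough counts to test 4 (PLAUR, PLAU, SERPINE2 and SERPINA1) and HT-29 to test 5 (the same 4 and SERPINB5). PLAT and SERPINB2 had too few counts in both. A called gene is one with an FDR under 0.05 in the edgeR test and a log2 fold change beyond 1 in either direction. In Caco-2, PLAUR alone rose with CoCl2 and with Oxy, and none of the 4 fell. Over all genes tested in Caco-2, 9.13% were called higher and 14.2% lower with CoCl2, and 4.43% higher and 7.27% lower with Oxy. In HT-29, 4 of 5 genes rose with CoCl2 (PLAUR, PLAU, SERPINE2 and SERPINB5), against 17.4% of all genes called higher and 23.9% lower. With library size scaling 2 of 5 did, as PLAUR (0.68) and SERPINE2 (0.64) were then under the fold limit. With Oxy, 3 of 5 rose in HT-29 (PLAUR, PLAU and SERPINE2), against 9.5% of all genes called higher and 7.57% lower. PLAU had 2 to 7 counts in HT-29 control and enough for a test there through the treated groups alone. This favoured a rise, and the HT-29 counts above include PLAU. The CoCl2 and Oxy comparisons of a line share the same 3 control libraries. In a bulk lysate, fewer expressing cells and less RNA per cell cannot be told apart.

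**Figure D1:**
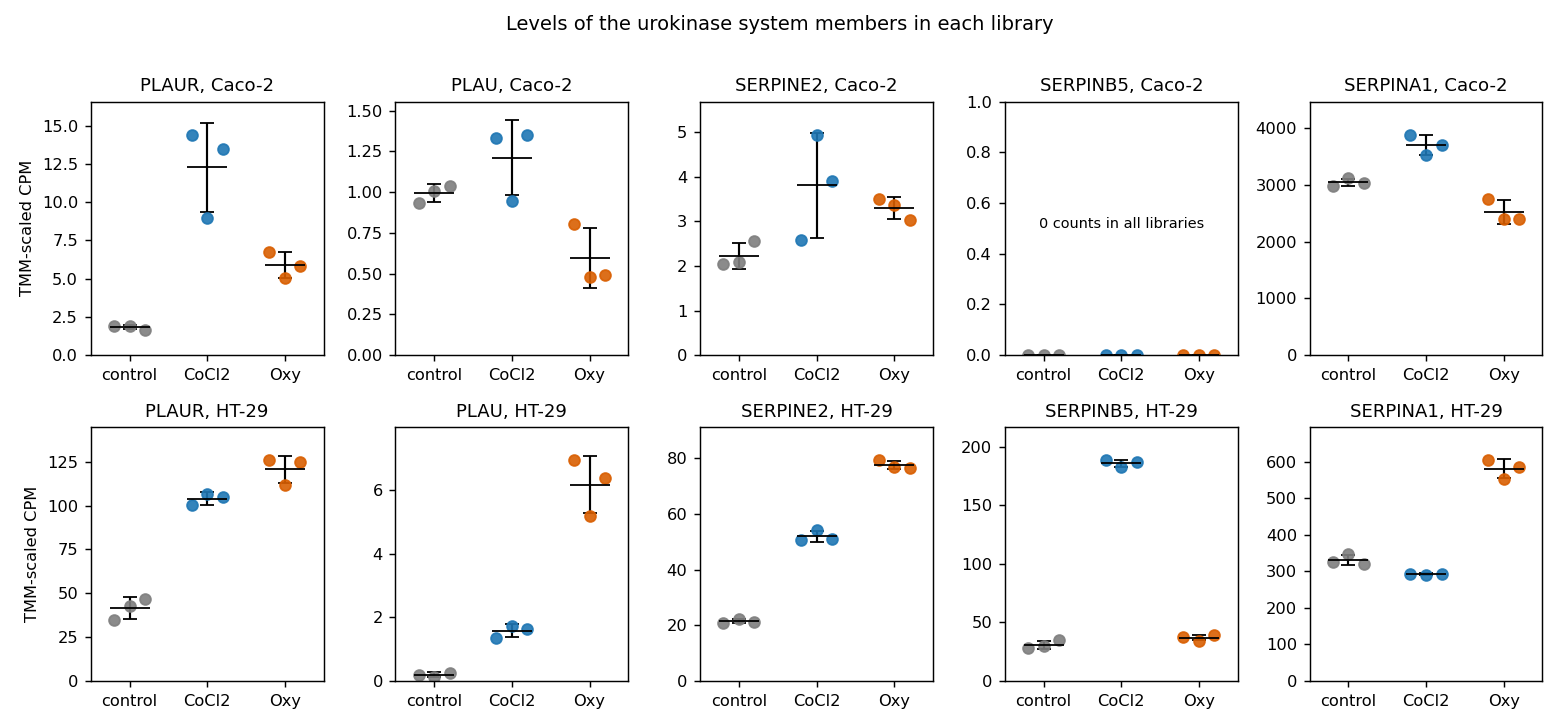
Level (TMM-scaled CPM within a line) of 5 genes in each library of Caco-2 (top) and HT-29 (bottom); each dot is 1 library, the long bar is the group mean and the whisker 1 SD, n = 3. PLAUR reached 14.4 CPM in a CoCl2 library of Caco-2 and 126 CPM in an Oxy library of HT-29, and SERPINB5 had 0 counts in all 9 Caco-2 libraries.

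PLAUR encodes the receptor and lies on chromosome 19 (GRCh38, 43646095 to 43670547, minus strand). In Caco-2, it was at 1.92, 1.88 and 1.66 CPM in the control libraries, at 14.4, 8.94 and 13.5 CPM with CoCl2, and at 6.73, 5.04 and 5.86 CPM with Oxy. The 3 groups did not overlap, and the lowest CoCl2 library was above every Oxy library. PLAUR rose by a log2 fold change of 2.74 ± 0.21 (SE) with CoCl2 (FDR = 3.66e-11), a 6.70-fold difference. With Oxy it rose by 1.68 ± 0.22 (FDR = 1.12e-06), or 3.20-fold. In limma on the deposited log2 values, the Oxy difference was 0.70, under the fold limit.

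In HT-29, PLAUR was at 34.9, 42.9 and 46.8 CPM in control, at 100.1, 107 and 105 CPM with CoCl2, and at 126, 112 and 125 CPM with Oxy. All treated libraries were above all controls, and the Oxy libraries were above the CoCl2 libraries. The log2 fold change was 1.31 ± 0.07 with CoCl2 (FDR = 2.48e-15) and 1.53 ± 0.07 with Oxy (FDR = 2.10e-16). With library size as the only scaling, the CoCl2 value was 0.68, under the fold limit.

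CoCl2 and Oxy were also set against each other, at their different doses. In Caco-2, where 11.7% of all genes were called between CoCl2 and Oxy in either direction, PLAUR was higher with CoCl2 by 1.07 ± 0.18 (FDR = 2.00e-05). This value was close to the fold limit and dropped to 0.95 without CoCl2 replicate 1, to 0.98 without CoCl2 replicate 3, to 0.96 without Oxy replicate 2 and to 0.90 with library size scaling. In HT-29, where 29.9% of all genes were called, PLAUR was lower with CoCl2 than with Oxy (log2 difference -0.22 ± 0.07, FDR = 0.00494), which did not pass the fold limit.

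As a ratio to control, the response to CoCl2 was smaller in HT-29 than in Caco-2, with an interaction of -1.54 ± 0.22 on the log2 scale (FDR = 5.84e-07), while 21.6% of all genes were called in this interaction. In CPM, the group means went from 1.82 to 12.3 in Caco-2 and from 41.5 to 104 in HT-29. For Oxy, the interaction of PLAUR was -0.16 ± 0.24 (FDR = 0.639, 95% interval -0.64 to 0.31), while 15.2% of all genes were called. HT-29 control cells held more PLAUR RNA than Caco-2 control cells by 4.60 ± 0.16 (FDR = 1.34e-23), a 24.3-fold difference. Between the control groups of the lines, 45.8% of all genes were called.

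**Figure D2:**
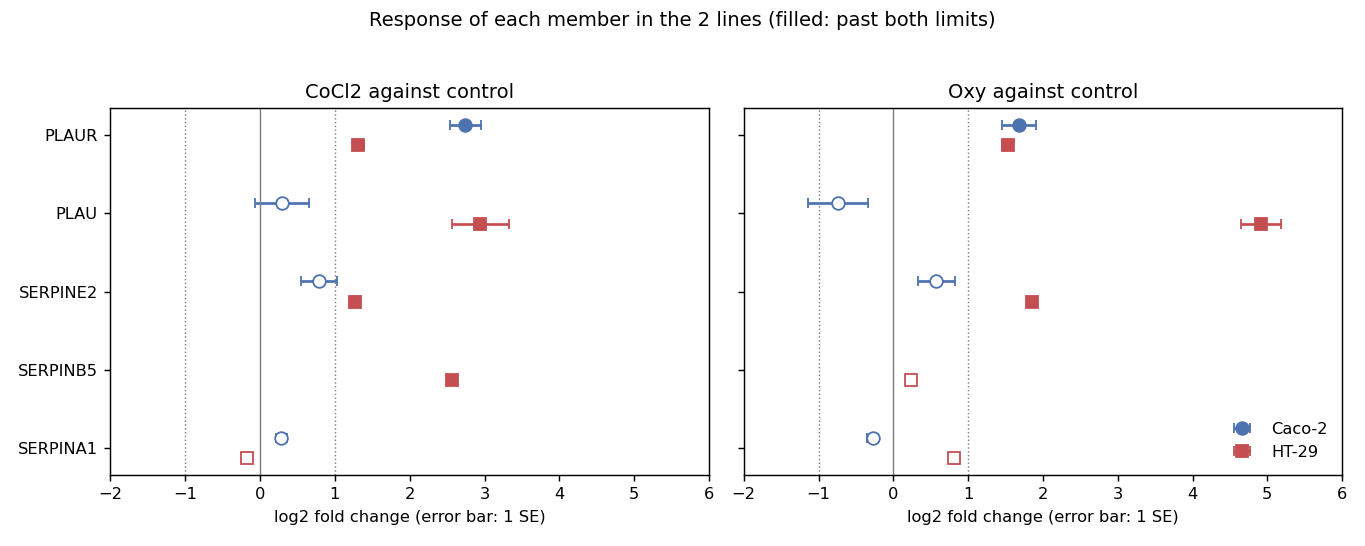
Log2 fold change against control with CoCl2 (left) and Oxy (right) for 5 genes in Caco-2 (circles) and HT-29 (squares); error bars are 1 SE, filled symbols passed the FDR and the fold limit, and dotted lines mark a log2 fold change of 1 in each direction. PLAU stood at 4.91 with Oxy in HT-29 and at -0.73 in Caco-2, and the small CoCl2 differences of PLAU (0.29) and SERPINA1 (0.29) in Caco-2 turned negative when library size was the only scaling.

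PLAU encodes urokinase itself (chromosome 10, 73909177 to 73917496, plus strand). It shares part of its locus with C10orf55, a long non-coding RNA on the opposite strand, and whether the counting used strand was not stated, so some counts may belong to that gene. In Caco-2, PLAU had 16, 15 and 15 counts in control, 16, 13 and 25 with CoCl2, and 12, 8 and 7 with Oxy. These are 0.992 ± 0.055 CPM (mean ± SD, n = 3), 1.21 ± 0.23 CPM and 0.594 ± 0.185 CPM. The CoCl2 and control libraries overlapped, and the Oxy libraries were below both other groups. Neither difference from control passed the FDR, with 0.29 ± 0.36 for CoCl2 (FDR = 0.486, -0.03 with library size scaling) and -0.73 ± 0.40 for Oxy (FDR = 0.131).

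In HT-29, PLAU had 3, 2 and 7 counts in control, 18, 25 and 20 with CoCl2, and 134, 89 and 120 with Oxy. The mean levels were 0.189, 1.57 and 6.17 CPM, and no group overlapped another. PLAU rose by 2.94 ± 0.38 with CoCl2 (FDR = 6.75e-08) and by 4.91 ± 0.26 with Oxy (FDR = 5.73e-15). Since the control counts were so few, ratios of summed counts were also taken with exact Poisson intervals, which cover counting error only. The ratio to control was 7.35 (95% interval 3.93 to 15.0) for CoCl2, from 63 against 12 counts, and 30.9 (17.4 to 60.3) for Oxy, from 343 against 12 counts.

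In HT-29, PLAU was lower with CoCl2 than with Oxy, by a log2 difference of -1.97 ± 0.19 (FDR = 5.94e-10). In Caco-2 it was higher with CoCl2, by 1.03 ± 0.39 (FDR = 0.0326), a call that was often lost. Without control replicate 2 the FDR was 0.0507 at 1.02, and the log2 difference was 0.97 without CoCl2 replicate 1, 0.92 without CoCl2 replicate 3, 0.89 without Oxy replicate 2 and 0.92 without Oxy replicate 3. It was 1.04 with FDR = 0.0658 in DESeq2, and the FDR ran from 0.0112 to 0.124 over 16 alternatives. The interaction with line was 2.54 ± 0.51 for CoCl2 (FDR = 7.37e-05) and 5.63 ± 0.49 for Oxy (FDR = 1.72e-11), both called. In control cells, PLAU was lower in HT-29 than in Caco-2 (log2 difference -2.19 ± 0.41, FDR = 1.39e-05), opposite in sign to PLAUR.

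SERPINE2 encodes protease nexin-1, which inhibits urokinase, plasmin and thrombin (chromosome 2, 223975045 to 224039318, minus strand). In HT-29, it was at 20.9, 22.4 and 21.2 CPM in control, at 50.7, 54.1 and 50.9 CPM with CoCl2, and at 79.2, 76.9 and 76.5 CPM with Oxy. The groups were far apart compared with the spread inside them. The log2 fold change was 1.27 ± 0.06 with CoCl2 (FDR = 6.36e-17) and 1.85 ± 0.06 with Oxy (FDR = 3.32e-20). The CoCl2 value was 0.64 with library size scaling and 0.93 on the deposited log2 values, under the fold limit in both. CoCl2 and Oxy differed by -0.58 ± 0.05 (FDR = 1.34e-10), lower with CoCl2 but not past the fold limit.

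In Caco-2, SERPINE2 was scarce, at 2.04, 2.08 and 2.56 CPM in control, 2.58, 4.94 and 3.89 CPM with CoCl2, and 3.50, 3.36 and 3.03 CPM with Oxy. The treated libraries were all above the controls, CoCl2 replicate 1 only narrowly. The log2 differences were 0.79 ± 0.24 for CoCl2 (FDR = 0.00652) and 0.57 ± 0.25 for Oxy (FDR = 0.0560), and neither was called. Its Oxy response differed between lines, with an interaction of 1.26 ± 0.21 (FDR = 8.58e-06), whereas the interaction for CoCl2 was 0.37 ± 0.21 (FDR = 0.145, 95% interval -0.04 to 0.77). In control cells, SERPINE2 was higher in HT-29 than in Caco-2 by 3.36 ± 0.13 (FDR = 7.46e-22), the same sign as PLAUR.

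SERPINB5 encodes maspin, a clade B serpin without protease inhibition of its own that has been described as a tumour suppressor (chromosome 18, 63476958 to 63505085, plus strand). All 9 Caco-2 libraries had 0 counts, which allows up to 0.229 CPM in the shallowest of them. HT-29 libraries held 28.4, 29.6 and 34.8 CPM in control, 188, 182 and 187 CPM with CoCl2, and 37.3, 34.4 and 39.0 CPM with Oxy. The CoCl2 libraries stood alone, and the Oxy and control libraries overlapped. SERPINB5 rose with CoCl2 by 2.57 ± 0.06 (FDR = 3.79e-23), or 5.94-fold. With Oxy it differed from control by 0.24 ± 0.07 (FDR = 0.00278), not past the fold limit, and the difference between CoCl2 and Oxy was 2.33 ± 0.06 (FDR = 5.35e-22). Set against 3 counts per Caco-2 library, HT-29 control cells held at least 169-fold more SERPINB5 RNA. A difference in response between lines could not be tested for this gene.

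SERPINA1 encodes alpha-1-antitrypsin, an inhibitor of neutrophil elastase that is secreted mainly by liver and also by enterocytes (chromosome 14, 94376747 to 94390693, minus strand). It was by far the most abundant of the 7 genes in Caco-2, at 2979.6, 3114 and 3029 CPM in control, 3883, 3531 and 3705 CPM with CoCl2, and 2757, 2391 and 2391 CPM with Oxy. The 3 groups did not overlap, but the differences were small. CoCl2 gave 0.29 ± 0.08 (FDR = 0.00208), which turned to -0.04 with library size scaling, and Oxy gave -0.28 ± 0.08 (FDR = 0.00417). CoCl2 exceeded Oxy by 0.56 ± 0.08 (FDR = 1.50e-06).

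In HT-29, SERPINA1 was at 325, 347 and 321 CPM in control, 294, 291 and 294 CPM with CoCl2, and 604, 553 and 587 CPM with Oxy. Every Oxy library was above all others and every CoCl2 library below all controls. The log2 difference from control was 0.81 ± 0.05 for Oxy (FDR = 1.40e-14) and -0.18 ± 0.05 for CoCl2 (FDR = 0.00111), and neither was called. The CoCl2 and Oxy groups differed by -0.99 ± 0.05 (FDR = 1.36e-16), just inside the fold limit. It was -1.03 without Oxy replicate 2 and -1.49 with library size scaling. The interaction with line was called for Oxy, at 1.07 ± 0.09 (FDR = 6.56e-12), and not for CoCl2, at -0.57 ± 0.09 (FDR = 1.98e-06). HT-29 control cells held less SERPINA1 RNA than Caco-2 control cells (log2 difference -3.11 ± 0.07, FDR = 2.25e-29).

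PLAT and SERPINB2, a second activator and a second activator inhibitor, were at or near the limit of detection. PLAT, which encodes tissue-type plasminogen activator, had 0 to 8 counts in the Caco-2 libraries and 0 to 2 in the HT-29 libraries. SERPINB2, which encodes plasminogen activator inhibitor 2 (chromosome 18, 63871692 to 63903888), had 0 counts in all 18 libraries. At these depths, no difference between groups was detectable for either gene.

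Levels of different genes were compared per length, as RPKM, which is CPM divided by the length of exons in kilobases. In Caco-2 control cells, SERPINA1 was at 610 ± 13.1 RPKM (mean ± SD, n = 3), while PLAUR was at 0.401 ± 0.030, PLAU at 0.331 ± 0.019 and SERPINE2 at 0.244 ± 0.032. The ranges of PLAUR, PLAU and SERPINE2 in these libraries did not overlap. In HT-29 control cells, SERPINA1 was at 70.6 ± 2.83 RPKM, PLAUR at 9.75 ± 1.51, SERPINB5 at 8.65 ± 1.04, SERPINE2 at 2.51 ± 0.09 and PLAU at 0.0670 ± 0.0277. PLAUR and SERPINB5 overlapped there. With CoCl2, SERPINB5 reached 48.2 ± 0.77 RPKM in HT-29, next to SERPINA1 at 58.0 ± 0.34.

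For PLAUR, the 6 groups ordered from Caco-2 control (0.401 RPKM) through Caco-2 Oxy (1.30) and Caco-2 CoCl2 (2.71) to HT-29 control (9.75), HT-29 CoCl2 (22.6) and HT-29 Oxy (28.1), and no neighbours in this order overlapped. For PLAU, the order ran from HT-29 control (0.0670 RPKM) through Caco-2 Oxy (0.198), Caco-2 control (0.331), Caco-2 CoCl2 (0.403) and HT-29 CoCl2 (0.518) to HT-29 Oxy (2.17). The libraries of Caco-2 CoCl2 overlapped with those of Caco-2 control and of HT-29 CoCl2. For SERPINE2, Caco-2 CoCl2 (0.417 RPKM) and Caco-2 Oxy (0.362) overlapped, and HT-29 Oxy was highest at 8.96.

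**Figure D3:**
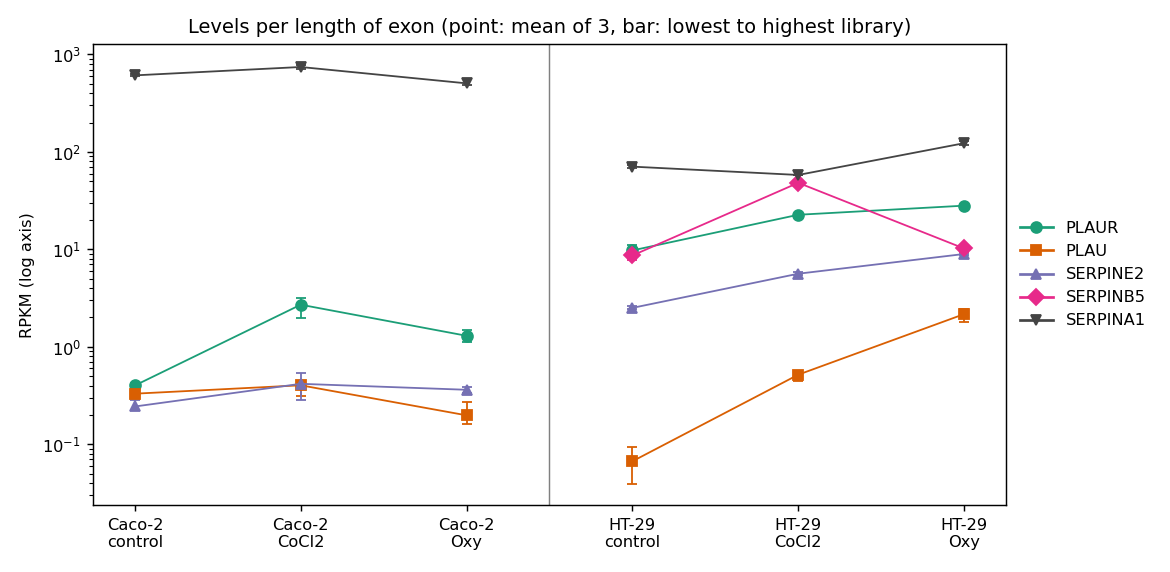
Level per length of exon (RPKM, log axis) of 5 genes in the 6 groups; points are means of 3 libraries and bars run from the lowest to the highest library, with SERPINB5 left out for Caco-2, where it had 0 counts. SERPINA1 was the highest in all groups, and PLAU was lowest in HT-29 control at 0.0670 RPKM and rose to 2.17 RPKM with Oxy.

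Over the 9 HT-29 libraries, Pearson's r between log2 CPM values was 0.948 for PLAUR and PLAU, 0.972 for PLAUR and SERPINE2 and 0.986 for PLAU and SERPINE2. In Caco-2, r was 0.184, 0.679 and -0.114 for the same pairs, and it was 0.936 for PLAU and SERPINA1. These are descriptions over 9 libraries that fall into 3 treatment groups, so that the points of a group share their treatment, and no test is attached to them. After centring within each line, the genes nearest to PLAUR over the 18 libraries, among 11519 genes, were MAP4 (r = 0.984), GPX2 (0.983), RHOG (0.981), GPX4 (0.973) and BET1L (0.972). GPX2 and GPX4 are glutathione peroxidases, and RHOG is a small GTPase.

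For PLAU the nearest genes in HT-29 were PGM3 (r = 0.997), ECM1 (0.995) and LEMD2 (0.995), and in Caco-2 UTP3 (0.971), IWS1 (0.968) and TYW1 (0.961). For SERPINE2 they were PFKFB2 (0.998), TTC9 (0.997) and OPTN (0.997) in HT-29 and ICE1 (0.960), UACA (0.940) and RAB10 (0.932) in Caco-2. For SERPINA1 they were BAIAP3 (0.996), ADAM19 (0.995) and CEACAM6 (0.995) in HT-29 and FUCA2 (0.992), BCL7A (0.988) and UBB (0.984) in Caco-2. For SERPINB5 they were CYB5R1, EIF3I and PSMA7 in HT-29, all at 0.999. Each of these values is over 9 libraries.

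The promoters of the 4 genes that rose in HT-29 are shown to place short motifs beside the responses, and they were taken from RefSeq on GRCh38.p14 as 250 bases before and 50 bases after an annotated start. RefSeq lists 2 starts for PLAU and 2 for SERPINE2. There were 4 motifs searched on both strands: ACGTG, the core of the element bound by hypoxia-inducible factor, TGANTCA, bound by AP-1, GGAAA, the core bound by NFAT, and TGACNNNGC, the antioxidant element. Capitals mark their matches, 5′ to 3′ on the strand of the gene.
PLAUR (chr19:43670120-43670419): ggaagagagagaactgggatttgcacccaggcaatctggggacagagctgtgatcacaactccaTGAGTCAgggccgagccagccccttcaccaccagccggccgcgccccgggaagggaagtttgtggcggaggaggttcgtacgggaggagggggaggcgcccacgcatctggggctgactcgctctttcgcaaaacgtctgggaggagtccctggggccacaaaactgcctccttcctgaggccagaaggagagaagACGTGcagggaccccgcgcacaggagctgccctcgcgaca
PLAU, first (chr10:73910360-73910659): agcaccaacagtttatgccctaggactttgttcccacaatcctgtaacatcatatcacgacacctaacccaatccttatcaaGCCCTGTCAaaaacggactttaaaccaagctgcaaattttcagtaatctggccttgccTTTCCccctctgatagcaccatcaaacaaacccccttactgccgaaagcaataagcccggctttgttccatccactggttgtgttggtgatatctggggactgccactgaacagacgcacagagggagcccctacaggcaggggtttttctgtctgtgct
PLAU, second (chr10:73910882-73911181): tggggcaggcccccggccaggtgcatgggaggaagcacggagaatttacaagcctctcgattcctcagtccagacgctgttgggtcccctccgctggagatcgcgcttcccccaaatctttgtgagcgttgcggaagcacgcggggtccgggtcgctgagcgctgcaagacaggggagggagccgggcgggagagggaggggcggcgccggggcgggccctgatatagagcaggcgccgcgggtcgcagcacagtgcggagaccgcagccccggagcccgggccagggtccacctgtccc
SERPINE2, first (chr2:224031429-224031728): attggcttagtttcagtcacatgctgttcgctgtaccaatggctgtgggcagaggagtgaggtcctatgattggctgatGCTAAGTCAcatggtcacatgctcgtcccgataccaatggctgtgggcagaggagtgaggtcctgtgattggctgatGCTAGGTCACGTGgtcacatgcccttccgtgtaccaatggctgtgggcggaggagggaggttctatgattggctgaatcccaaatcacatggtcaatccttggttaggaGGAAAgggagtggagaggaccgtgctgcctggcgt
SERPINE2, second (chr2:224038591-224038890): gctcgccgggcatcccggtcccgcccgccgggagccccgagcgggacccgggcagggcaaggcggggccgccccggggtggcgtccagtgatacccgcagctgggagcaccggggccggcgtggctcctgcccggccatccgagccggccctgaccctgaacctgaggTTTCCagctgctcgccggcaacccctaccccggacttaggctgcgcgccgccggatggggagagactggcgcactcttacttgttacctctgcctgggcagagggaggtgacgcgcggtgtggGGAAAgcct
SERPINB5 (chr18:63476708-63477007): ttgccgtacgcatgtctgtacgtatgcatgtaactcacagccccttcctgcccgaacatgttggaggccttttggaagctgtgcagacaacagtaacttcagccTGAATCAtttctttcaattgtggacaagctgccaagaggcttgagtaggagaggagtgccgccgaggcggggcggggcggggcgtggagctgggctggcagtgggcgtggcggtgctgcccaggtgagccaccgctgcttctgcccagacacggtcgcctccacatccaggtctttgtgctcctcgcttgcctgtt

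The PLAUR promoter held TGAGTCA, whose first base is at -186 with the start base as 1, and ACGTG at 11, inside the transcript. The first PLAU promoter held the reverse complement of TGACNNNGC at -168 and that of GGAAA at -110, and the second held none of the 4. The first SERPINE2 promoter held a CACGTG, which matches ACGTG on both strands (at -87 and -86) and overlaps a reverse complement of TGACNNNGC at -94, with another of these at -171 and GGAAA at 16. The second SERPINE2 promoter held only GGAAA, at 42 and in reverse complement at -82. The SERPINB5 promoter held TGAATCA at -146. Promoters of SERPINA1 held none of the 4, and that of SERPINB2, which had no counts in any library, held TGAATCA at -102.

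These motifs are common: of 34943 promoters of the same length, 21.4% held ACGTG, 7.72% TGANTCA, 61.2% GGAAA and 13.3% TGACNNNGC on either strand. A match describes letters only, and 6 of the 7 genes had a promoter that was used here.

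Around the 7 genes, 4 lists of the pathway were counted. The first holds 18 genes: plasminogen (PLG), HGF, metalloproteases, cathepsins and other proteases set around the system. PLG itself had 0 counts in every library, so all counts below are of the other genes. In HT-29, of 12 tested, 7 rose and 1 (HPN) fell with CoCl2, and 7 rose and 0 fell with Oxy, where the list medians were 1.33 and 1.06 against -0.03 and 0.01 over all genes. With library size scaling, the CoCl2 split was 5 higher and 2 lower and the Oxy split 4 and 0. In HT-29 control, MMP1 had 5 to 8 counts, MMP10 2 to 6 and MMP13 0 to 7. They had enough counts for a test there through treated groups alone. This favoured a rise, and the HT-29 counts and medians include these genes. In Caco-2, of 10 tested, 2 rose with CoCl2 (CTSD and MMP13) and 1 with Oxy (MMP1), with medians of 0.23 and 0.33 against -0.03 and -0.02. MMP13 had enough counts there through CoCl2 alone (11 to 30 counts, 0 or 1 in control), which favoured its rise. Of all genes in HT-29, 17.4% were called higher and 23.9% lower with CoCl2, and 9.5% and 7.57% with Oxy. In Caco-2 those shares were 9.13% and 14.2% with CoCl2, and 4.43% and 7.27% with Oxy.

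MMP13, collagenase 3, had the highest fitted fold of the list in HT-29 with both agents, from 0.174 to 33.1 CPM with CoCl2 (log2 fold change 7.45) and to 5.57 CPM with Oxy (4.87). Its control libraries held 0 to 7 counts, so these folds are uncertain. CTSL, the lysosomal protease cathepsin L, rose from 3.96 to 57.1 CPM with CoCl2 (3.82) and to 16.9 CPM with Oxy (2.07). CTSD, cathepsin D, rose from 107 to 732 CPM with CoCl2 (2.77) and to 227 CPM with Oxy (1.09), and by 1.07 with CoCl2 in Caco-2. MMP1, the interstitial collagenase, rose with Oxy in both lines, from 24.7 to 70.2 CPM in Caco-2 (1.51) and from 0.342 to 3.29 CPM in HT-29 (3.29).

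Other proteases of the list were also called in HT-29. HPN, hepsin, a membrane protease, fell from 17 to 19 counts in control to 1 or 2 with CoCl2. PRSS8, prostasin, rose by 1.78 with CoCl2 and by 1.09 with Oxy, MMP7, matrilysin, by 1.63 and 1.04, and ST14, matriptase, by 1.03 with CoCl2. With library size scaling, 6 of the differences named in these paragraphs were not called: ST14 with CoCl2 (0.39), MMP7 with both agents (0.997 and 0.90), PRSS8 with Oxy (0.95), and CTSD with Oxy in HT-29 (0.95) and with CoCl2 in Caco-2 (0.75).

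The second list holds 12 protease inhibitors of the pathway. Besides inhibitors of plasmin and its activators it counts the metalloprotease inhibitors TIMP1, TIMP2 and TIMP3, the matriptase inhibitor SPINT2 and the carboxypeptidase CPB2. In HT-29, of 7 tested, 4 rose and 1 fell with CoCl2, against 0 and 1 with library size scaling, and 3 rose and 0 fell with Oxy (medians 1.03 and 0.92), and of the 3 that rose with Oxy, TIMP1 and TIMP2 are metalloprotease inhibitors. Over all genes in HT-29, 17.4% were called higher and 23.9% lower with CoCl2, and 9.5% and 7.57% with Oxy. In Caco-2, of 11 tested, none rose with either agent, SERPING1 and CPB2 fell with CoCl2, and CPB2 fell with Oxy (medians -0.38 and 0.04). CPB2 had enough counts for a test through control alone, which favoured a fall. It had 28 to 34 counts in control, 6 to 12 with CoCl2 and 5 to 15 with Oxy. With library size scaling, 3 were called lower with CoCl2 and 2 with Oxy. The shares of all genes called lower in Caco-2 were 14.2% and 7.27%.

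In HT-29, SERPINA5, the protein C inhibitor, fell from 9.42 to 1.85 CPM with CoCl2 (-2.36). SPINT2, an inhibitor of matriptase, rose by 1.17, SERPINF2, the plasmin inhibitor, by 1.40, TIMP2, a metalloprotease inhibitor, by 1.03 and SERPINI1, neuroserpin, by 1.44, and these 4 were not called with library size scaling (0.54, 0.76, 0.40 and 0.81). With Oxy, SERPINI1 rose by 2.47, TIMP2 by 1.68 and TIMP1 by 1.07, of which TIMP1 was not called with library size scaling (0.93). CPB2, an antifibrinolytic carboxypeptidase, fell with Oxy in Caco-2 (-1.54).

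The third list holds 11 receptors for plasminogen or for activator and inhibitor complexes. Of 11 tested in Caco-2, 3 rose and 1 fell with CoCl2, and 2 rose and 1 fell with Oxy (medians 0.16 and 0.25). Of 10 tested in HT-29, 5 rose and 2 fell with CoCl2, against 3 and 2 with library size scaling, and LRP1 rose and MRC2 fell with Oxy (medians 0.79 and 0.32). The 2 of 10 lower with CoCl2 and the 1 of 10 in each direction with Oxy were near the shares of all genes (23.9% lower with CoCl2, 9.5% higher and 7.57% lower with Oxy), while 17.4% of all genes were called higher with CoCl2. In Caco-2 those shares were 9.13% higher and 14.2% lower with CoCl2, and 4.43% and 7.27% with Oxy. ENO1, a glycolytic enzyme that also binds plasminogen at the surface, rose with CoCl2 in both lines (2.41 and 2.46) and with Oxy in Caco-2 (1.90). LRP1, which takes up urokinase and inhibitor complexes bound to uPAR, rose in HT-29 by 1.64 and 1.27. SORL1 rose in Caco-2 by 1.76 and 1.99, and VLDLR rose with CoCl2 by 1.48 in Caco-2 and by 2.24 in HT-29. ANXA2, annexin 2, and IGF2R, the receptor of insulin-like growth factor 2, rose with CoCl2 in HT-29 by 1.17 and 1.12, neither of them called with library size scaling (0.54 and 0.49).

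MRC2, also called uPAR-associated protein, fell in Caco-2 from 6.81 to 2.53 CPM with CoCl2 (-1.43) and to 1.43 CPM with Oxy (-2.25). In HT-29 it fell with both agents, from 27 to 29 counts in control to 2 to 4 with CoCl2 and 4 to 7 with Oxy. MRC2 had enough counts for a test there through control alone, which favoured a fall, and the list counts include it. PLGRKT, a plasminogen receptor, fell with CoCl2 in HT-29 (-1.01).

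The last list holds 18 partners of uPAR, mainly integrins, vitronectin and EGFR. Of 15 tested in Caco-2, 3 rose and 1 fell with CoCl2, against 2 and 2 with library size scaling, and 2 rose and 1 fell with Oxy, against 1 and 1 (medians 0.42 and 0.0021). Of 11 tested in HT-29, 2 rose (ITGAV and LYPD3) and 1 fell with CoCl2, against 1 and 2, and 3 rose and 0 fell with Oxy (medians 0.56 and 0.81). The 2 of 11 higher with CoCl2 in HT-29 were near the 17.4% of all genes called higher there, and the 1 of 11 lower was under the 23.9% called lower. The share of all genes called higher with Oxy there was 9.5%, and in Caco-2 it was 9.13% with CoCl2 and 4.43% with Oxy. ITGA5, the alpha subunit of the fibronectin receptor, rose in Caco-2 from 4.49 ± 0.58 to 81.1 ± 5.08 CPM with CoCl2 (4.17) and to 64.8 ± 3.13 CPM with Oxy (3.85). ITGA5 was too scarce for a test in HT-29, where its libraries held 0 to 4 counts.

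EGFR fell with CoCl2 in both lines (-1.24 in Caco-2, -1.72 in HT-29). ITGAM, an integrin of myeloid cells that binds uPAR, rose with CoCl2 in Caco-2 by 1.95 and with Oxy in HT-29 from 2.77 to 19.7 CPM (2.84). ITGAM is also on the list of leukocyte markers, and the cell source of its RNA was not tested. LYPD3, a relative of uPAR, had 6 to 9 counts in HT-29 control and enough for a test through treated groups alone, which favoured a rise. It rose with Oxy in HT-29 from 0.381 to 4.56 CPM (3.62). FN1, fibronectin, rose there by 1.27 ± 0.36 and was not called in DESeq2 (1.21). CAV1 rose in Caco-2 by 1.27 and 1.14, neither of them called with library size scaling (0.94 and 0.98). ITGB3 fell with Oxy in Caco-2 (-1.18), and ITGAV rose with CoCl2 in HT-29 by 1.18, or by 0.54 and not called with library size scaling.

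**Figure D4:**
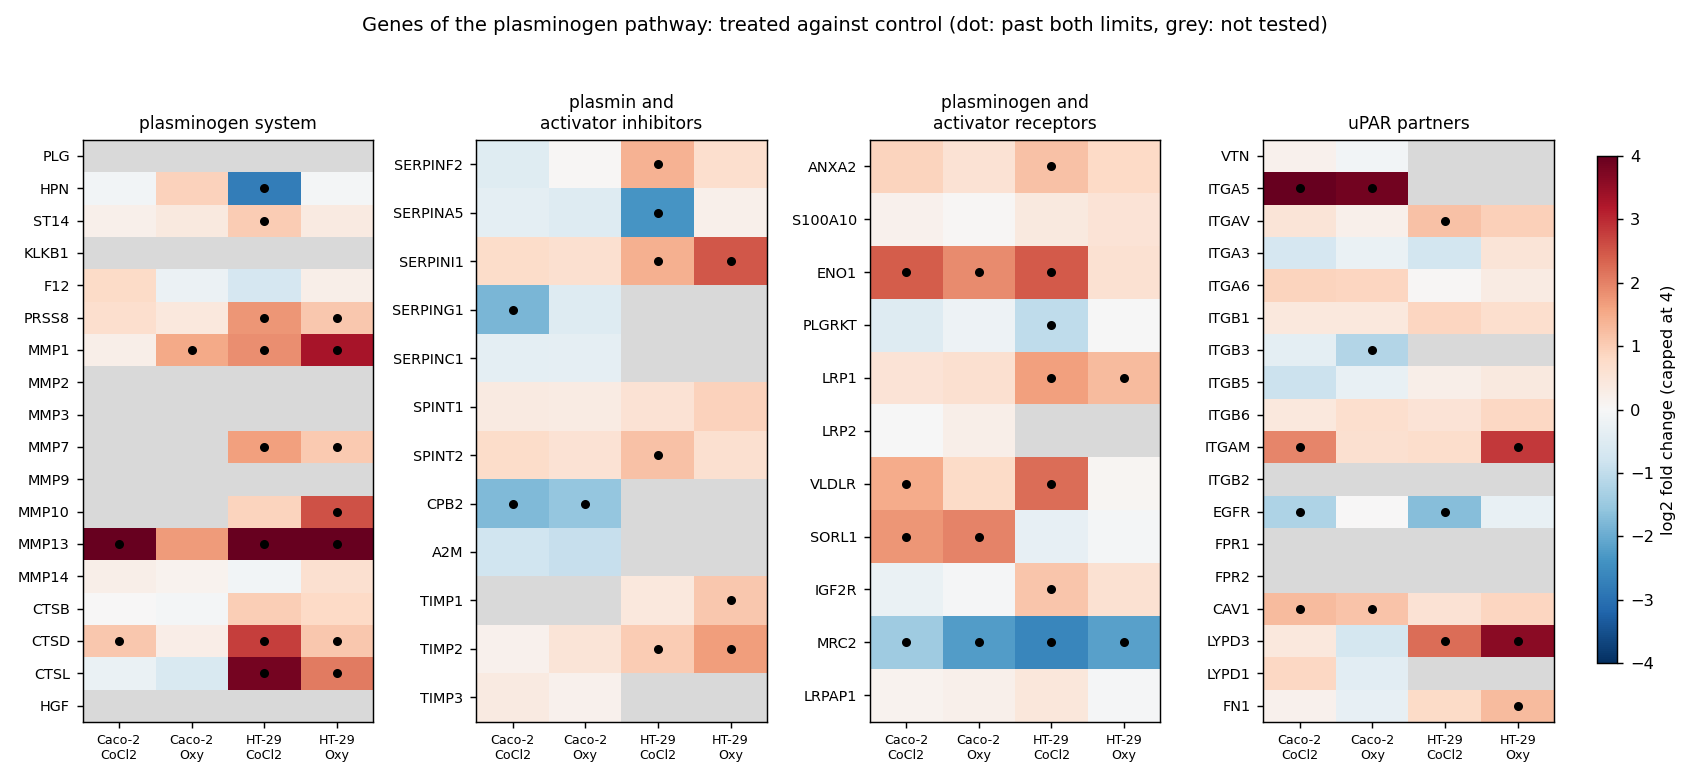
Log2 fold change against control of the genes of 4 pathway lists (rows) in 4 comparisons (columns); red is higher and blue lower with treatment, colours are capped at 4, dots mark genes past the FDR and the fold limit under TMM scaling, and grey marks genes not tested. Of the 12 genes of the plasminogen system tested in HT-29, 7 rose with each agent, or 5 with CoCl2 and 4 with Oxy when library size was the only scaling. MMP1, MMP10 and MMP13 had enough counts there through treated groups alone, which favoured a rise. Of all genes there, 17.4% were called higher with CoCl2 and 9.5% with Oxy under TMM scaling.

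Besides the 4 serpins among the 7 genes, 30 other serpins were counted, with counts enough for a test in 17 cases for Caco-2 and 14 for HT-29. They include SERPINF2, SERPINA5, SERPINI1, SERPING1 and SERPINC1, which were already counted in the second list, so these counts are not separate from that list. With CoCl2, 4 rose in Caco-2 (SERPINB6, SERPINB8, SERPINB9 and SERPINH1) and 6 fell, or 2 and 8 with library size scaling. SERPINH1, at 1.001, was barely past the fold limit. In HT-29, 4 rose with CoCl2 (SERPINF2, SERPINI1, SERPINB7 and SERPIND1) and 5 fell (SERPINA3, SERPINA4, SERPINA5, SERPINA6 and SERPINB1), or 1 and 6 with library size scaling. With Oxy, 2 rose in Caco-2 (SERPINB6 and SERPINB8) and 3 fell, or 1 and 3 with library size scaling, and in HT-29, SERPINI1 and SERPINB7 rose and SERPINA3 and SERPINA6 fell. SERPIND1 had enough counts for a test in HT-29 through the CoCl2 group alone (0.971 CPM, control 0.0558). SERPINB7 had them through Oxy alone (1.82 CPM, control 0.178), and SERPINA3 through control alone (0.788 CPM, 0 with CoCl2). The need for counts favoured these directions, and the rises and falls above include these genes. The Caco-2 medians were -0.48 with CoCl2 and -0.35 with Oxy, and the HT-29 medians 0.18 and -0.18. The shares of all genes called higher and lower were 9.13% and 14.2% with CoCl2 in Caco-2, 4.43% and 7.27% with Oxy there, 17.4% and 23.9% with CoCl2 in HT-29, and 9.5% and 7.57% with Oxy there. SERPINB1, an inhibitor of neutrophil proteases, fell from 349 to 157 CPM with CoCl2 in HT-29 (-1.16). In Caco-2, SERPINB6, an inhibitor of cathepsin G, rose from 56.0 to 162 CPM with CoCl2 (1.54) and to 212 CPM with Oxy (1.92). SERPINB8 rose by 1.55 with CoCl2 and by 1.01 with Oxy, the latter not called with library size scaling (0.86), and SERPINB9, the granzyme B inhibitor, rose by 1.14 with CoCl2, or by 0.82 and not called with library size scaling.

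SERPINA1 lies in a cluster of 10 clade A serpins on chromosome 14, and the values of its neighbours are set beside it, a view chosen after they were seen. Of the 9 neighbours, Caco-2 had counts to test 6, of which 5 fell with CoCl2 and 3 with Oxy, and HT-29 to test 4, of which 4 fell with CoCl2 and 2 with Oxy, with the same counts under library size scaling. That scaling also called more of all genes lower with CoCl2, 3546 of 16034 in Caco-2 and 6250 of 15812 in HT-29, in place of 2283 (14.2%) and 3775 (23.9%). With Oxy under TMM, 7.27% of all genes were called lower in Caco-2 and 7.57% in HT-29. SERPINA6, corticosteroid-binding globulin, fell in all 4 comparisons, from 40.6 ± 4.34 CPM to 13.1 ± 1.02 (-1.63) and 13.3 ± 0.85 CPM (-1.61) in Caco-2, and from 2.74 ± 0.46 CPM to 0.195 (-3.76) and 0.671 CPM (-2.05) in HT-29. SERPINA4, kallistatin, fell in Caco-2 with CoCl2 (-1.80) and Oxy (-1.14) and in HT-29 with CoCl2 (-2.96). SERPINA10 fell with CoCl2 (-1.57) and SERPINA11 with CoCl2 (-1.57) and Oxy (-1.10) in Caco-2. SERPINA3, among the neighbours that fell in HT-29, had enough counts for a test through control alone, which favoured a fall. Gene models of SERPINA4 and SERPINA5 share their start and part of their span, so their counts could be split between them. In the same comparisons, SERPINA1 itself stayed between -0.28 and 0.81.

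SERPINB5 and SERPINB2 belong to a cluster of 10 clade B serpins on chromosome 18. Of the 8 others, 1 was tested in Caco-2 (SERPINB8) and 2 in HT-29. The remaining members of the cluster were too scarce to test in either line.

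**Figure D5:**
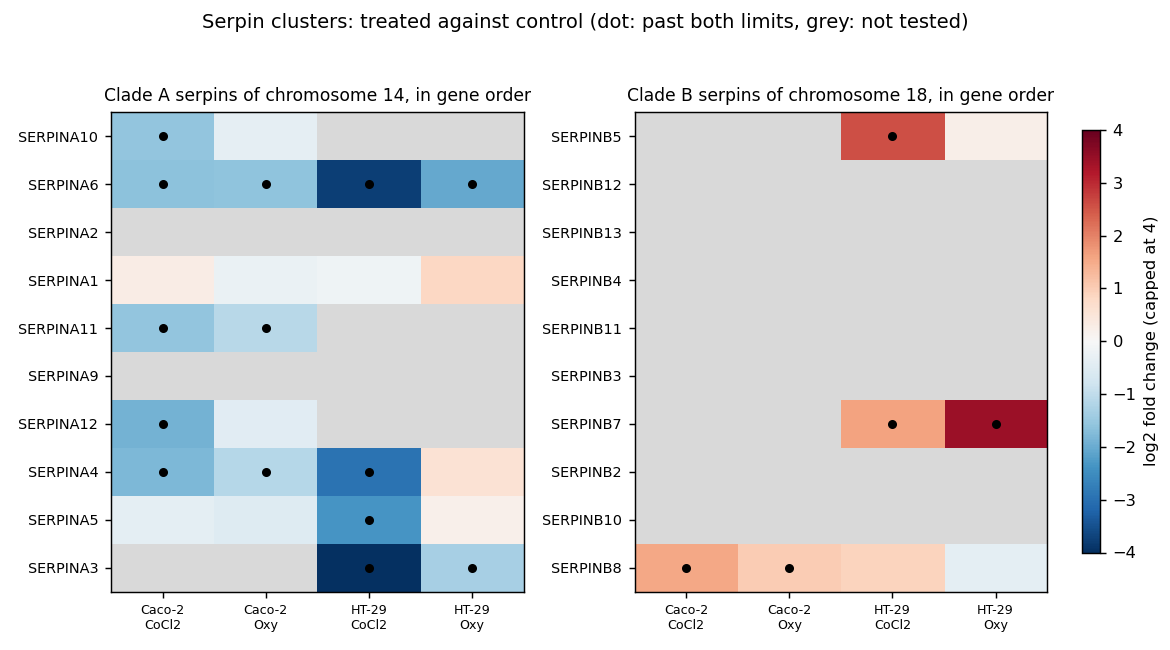
Log2 fold change against control of the clade A serpins of chromosome 14 (left) and the clade B serpins of chromosome 18 (right), in gene order from top to bottom; colours are capped at 4, dots mark genes past the FDR and the fold limit, and grey marks genes not tested. SERPINA6 fell in 4 of 4 comparisons while SERPINA1 passed the fold limit in none, and SERPINA3 had 0 counts with CoCl2 in HT-29, so that its colour there is no measured fold.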

How the data were processed

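Reads were single-end, 75 nucleotides long, from poly(A) libraries of a stranded kit. Per the study's methods and the submitters' processing notes, quality was checked with FastQC 0.11.9, adapters were cut with cutadapt 2.10, and STAR 2.7.5b aligned reads to GRCh38.p13, with genes counted on GENCODE release 34. The counting tool and its use of strand are not given in the sources used here. The authors deposited raw counts per gene symbol, with 0 columns left without a sample. They also deposited log2 values, which were recomputed from the counts and matched log2(RPKM + 1) within 2% for 100% of 11712 genes in Caco-2 and 11403 in HT-29 after 1 factor per library. A gene at 0 there had failed a filter, and these values served only as an alternative.

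Counts were tested with edgeR 4.0.16 in R 4.3.3 (quasi-likelihood F test, two-sided, TMM, filterByExpr), over the 9 libraries of each line, and over all 18 for line differences and levels between lines. FDR is Benjamini-Hochberg over all 16034 (Caco-2), 15812 (HT-29) or 17921 genes tested. DESeq2 1.42.0 and limma 3.58.1 were alternatives, with a pseudocount of 1 or 0.1 for limma. A log2 fold change against control had a median SE of 0.127 for CoCl2 and 0.126 for Oxy in Caco-2, and of 0.0927 and 0.0855 in HT-29. Poisson intervals and the floor of 3 counts cover counting error only. Per-length levels used the union of exons in GENCODE 44, which matched 7 of 7 genes. On simulated counts, changes of 1 on the log2 scale passed the FDR for 93% of genes in each line and 65% for the line difference, and changes of 2 for 100%. The fold limit was not applied there, so these are not recovery rates of the calls. The changed genes had a mean of at least 20 counts and the same spread was set for all genes, which leaves out genes as scarce as PLAU in Caco-2.

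The 7 genes, the pathway lists and the motifs were chosen with earlier results of these data known. Named genes were the 7 and, for each list and for other serpins in each comparison with control, the 3 highest and 3 lowest log2 fold changes among called genes with a mean of at least 20 counts. The genes nearest in pattern were named by rank of r, 5 for PLAUR and 3 per line for the others, among genes with a mean of at least 50 counts. Genes outside this rule, such as SERPINA3 and those that make up a count of 5 or fewer, were named after their values were seen. Small RNA tables were not used here, and 2 genes of the lists are not reported here and were left out of the list counts.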

Additional observations from a re-analysis of the deposited data

Results flagged for a closer look

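In 5 cases the response of a gene to 1 agent differed between the lines by the interaction test in edgeR (HT-29 minus Caco-2, log2 scale). Of 5 genes in that fit, SERPINB5 among them, 1 was called higher and 1 lower for CoCl2, and 3 were called higher for Oxy. Of all genes, 21.6% were called in either direction for CoCl2 and 15.2% for Oxy. For PLAUR with CoCl2 the difference was -1.54, from 2.74 in Caco-2 and 1.31 in HT-29, with all 3 treated libraries above all controls in both lines. For PLAU it was 2.54 with CoCl2 and 5.63 with Oxy, and in Caco-2 neither agent gave a called change of this gene. For SERPINE2 with Oxy it was 1.26, from 0.57 in Caco-2 and 1.85 in HT-29. For SERPINA1 with Oxy it was 1.07, from -0.28 and 0.81, and here all Oxy libraries were below control in Caco-2 and all were above control in HT-29. Differentiation was given to Caco-2 alone, so that line and culture state cannot be told apart in any of them.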

How the results depend on the processing

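Of the 7 genes, the number called for CoCl2 against Oxy in Caco-2 was 2 (PLAUR and PLAU) and depended most on the processing: it was 1 in DESeq2 and with no filter on low counts, 0 with library size as the only scaling and in limma on the deposited log2 values with either pseudocount, 0 to 2 when 1 library was left out, and 3 without a fold limit. Library size scaling, which shifts the median of all log2 fold changes by -0.32 and -0.15 in Caco-2 and by -0.63 and -0.14 in HT-29 for CoCl2 and Oxy against control, gave 2 in place of 4 genes for CoCl2 in HT-29 and 4 in place of 2 for CoCl2 against Oxy in HT-29. It turned the Caco-2 CoCl2 values of PLAU to -0.027 and of SERPINA1 to -0.035. It also moved the all-gene calls for CoCl2 from 1464 higher and 2283 lower to 870 and 3546 in Caco-2, and from 2749 and 3775 to 1295 and 6250 in HT-29, and for Oxy from 711 and 1165 to 500 and 1644 in Caco-2, and from 1502 and 1197 to 1225 and 1596 in HT-29. PLAU was not tested in limma with either pseudocount, so its missing calls there are not calls that were lost. Limma on the deposited values called 2 genes for CoCl2 in HT-29 and 0 for Oxy in Caco-2 (PLAUR at 0.70). Without a fold limit, 3 genes were called for CoCl2 and 2 for Oxy in Caco-2, 5 for Oxy in HT-29 and 5 for CoCl2 against Oxy in HT-29. Over all genes, the calls against control (3747, 1876, 6524 and 2699 for Caco-2 CoCl2, Caco-2 Oxy, HT-29 CoCl2 and HT-29 Oxy) were 1098, 381, 2520 and 744 in limma, 2116, 878, 3893 and 1295 with a pseudocount of 0.1, and 10370, 8084, 13097 and 10876 without a fold limit. Samples with the same replicate number did not deviate together (r from -0.04 to 0.05 in Caco-2 and from -0.02 to 0.04 in HT-29), and with the replicate number as a block no call on the 7 genes changed, with PLAUR at 2.74 for CoCl2 in Caco-2 and 3737 genes called there. Depth limits PLAU, at 2 to 25 counts per library outside the HT-29 Oxy group, and leaves PLAT and SERPINB2 undescribed.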
